A study of Xenopus laevis with 16 samples.

Results

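Solute carriers are membrane proteins that move amino acids, sugars, metals, nucleotides, organic acids and inorganic ions across the plasma membrane and the membranes of organelles. Probes were taken as solute carriers where the array's gene name began with slc and a number, where the array's description named a solute carrier, or where the gene name was sglt-1-like-A-prov, a sodium-glucose cotransporter-like gene. The rule used names only and found 28 of the 21495 probes measured. Of these, 23 matched a symbol in the RefSeq annotation of Xenopus laevis (assembly Xenopus_laevis_v10.1), 10 of them a single symbol and the others 2 or more, mostly the .L and .S copies of the gene, which the probe may not tell apart. The ending -prov of the array's gene names is left out below.

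Embryos of Xenopus laevis were injected at the 2-cell stage with 60 ng per blastomere of either a control morpholino or PVD2, a morpholino mixture against the class V POU genes. Whole embryos (pools of 3) and animal caps (pools of 25, the prospective ectoderm cut out at stage 8) were collected at stage 9 (late blastula) and stage 10 (early gastrula), with 2 replicates for each of the 8 groups. Each sample was labelled with Cy3 and hybridised against a common Cy5 reference of whole embryos pooled over 11 stages, so a level here is the log2 ratio of sample over reference, which compares arrays for one probe and does not rank probes by abundance. Scanner output of 15 of the 16 arrays was used, and PVD2 caps at stage 10 replicate 2 enters only through the authors' processed values. Animal caps are a tissue explant, and neither tissue was sorted into cell types.

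The labelled tissues were borne out by their markers. All 18 mesoderm and endoderm probes and all 7 vegetal maternal probes were lower in control caps than in control embryos at an adjusted p under 0.05, with median log2 differences of -3.12 and -2.26. Between 49.6% and 63.2% of an array's probes had Cy3 well above background, a flag the scanner software sets for each spot, with the lowest shares on both control embryo arrays of stage 9. Net Cy3 was brighter on caps arrays (array medians of 60.8 to 67.2) than on embryo arrays (17.6 to 34.8), and one array, PVD2 embryos at stage 10 replicate 2, had the narrowest spread of log2 ratios (SD 0.511, against up to 0.978). The 4 slides each held 1 tissue and 1 replicate number, and the tissues were scanned on different days, so tissue cannot be told apart from slide and scan day. The probe of xoct-91, a class V POU gene, differed by 0.07 ± 0.17 (SE) between PVD2 and control, and a morpholino need not change the level of its transcript.

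As background, a blastula lives on yolk and maternal RNA and begins its own transcription shortly before the stages measured here. Carriers of the inner mitochondrial membrane exchange nucleotides, phosphate and metabolites for respiration. Carriers of the plasma membrane exchange amino acids, sugars, lactate and metals with the surroundings. Those of the endoplasmic reticulum and Golgi supply nucleotide sugars for glycosylation.

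Of the 28 carriers, 15 (53.6%) were well above background on all 15 arrays, against 43.3% of all probes, and 2 were above it on none, against 22.2%. All 4 mitochondrial carriers were above background on every array: slc25a5, an ADP/ATP exchanger, slc25a3, the phosphate carrier, slc25a1, the citrate carrier, and mcsc-pending, described as a calcium-dependent carrier and matched to slc25a25, which exchanges ATP-magnesium for phosphate. So were the zinc transporters slc30a1 and slc39a9, the lactate and pyruvate transporter slc16a1, the carnitine transporter slc22a5, the cationic amino acid transporter slc7a3, the endoplasmic reticulum carrier slc35b1 (whose name also matches slc35b2.S, a second gene) and the iodide transporter slc5a5. The remaining 4 of these 15 were named by similarity only: MGC53951 (slc3a2, the heavy subunit of amino acid exchangers), MGC52872 (slc19a3, a thiamine transporter), MGC53521 (slc13a1, a sulfate transporter) and MGC53961 (slc37a1, a sugar phosphate transporter).

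Neither slc13a2, a transporter of dicarboxylates, nor slc26a4, an anion exchanger, was above background on any array in Cy3, although the reference was above background for them on 14 and 15 arrays. The nucleoside transporter slc28a2 was above background on 1 array and the sodium-glucose-like sglt-1-like-A on 3. Cationic amino acid transporter slc7a2 reached background on 4 arrays, all of them PVD2 embryos, but its levels differed little, from -0.24 and -0.02 on the PVD2 embryo arrays of stage 9 to -0.19 and -0.15 on the matching control arrays. The sodium-calcium exchanger slc8a2 was above background on 6 arrays, all of replicate 2.

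**Figure D1:**
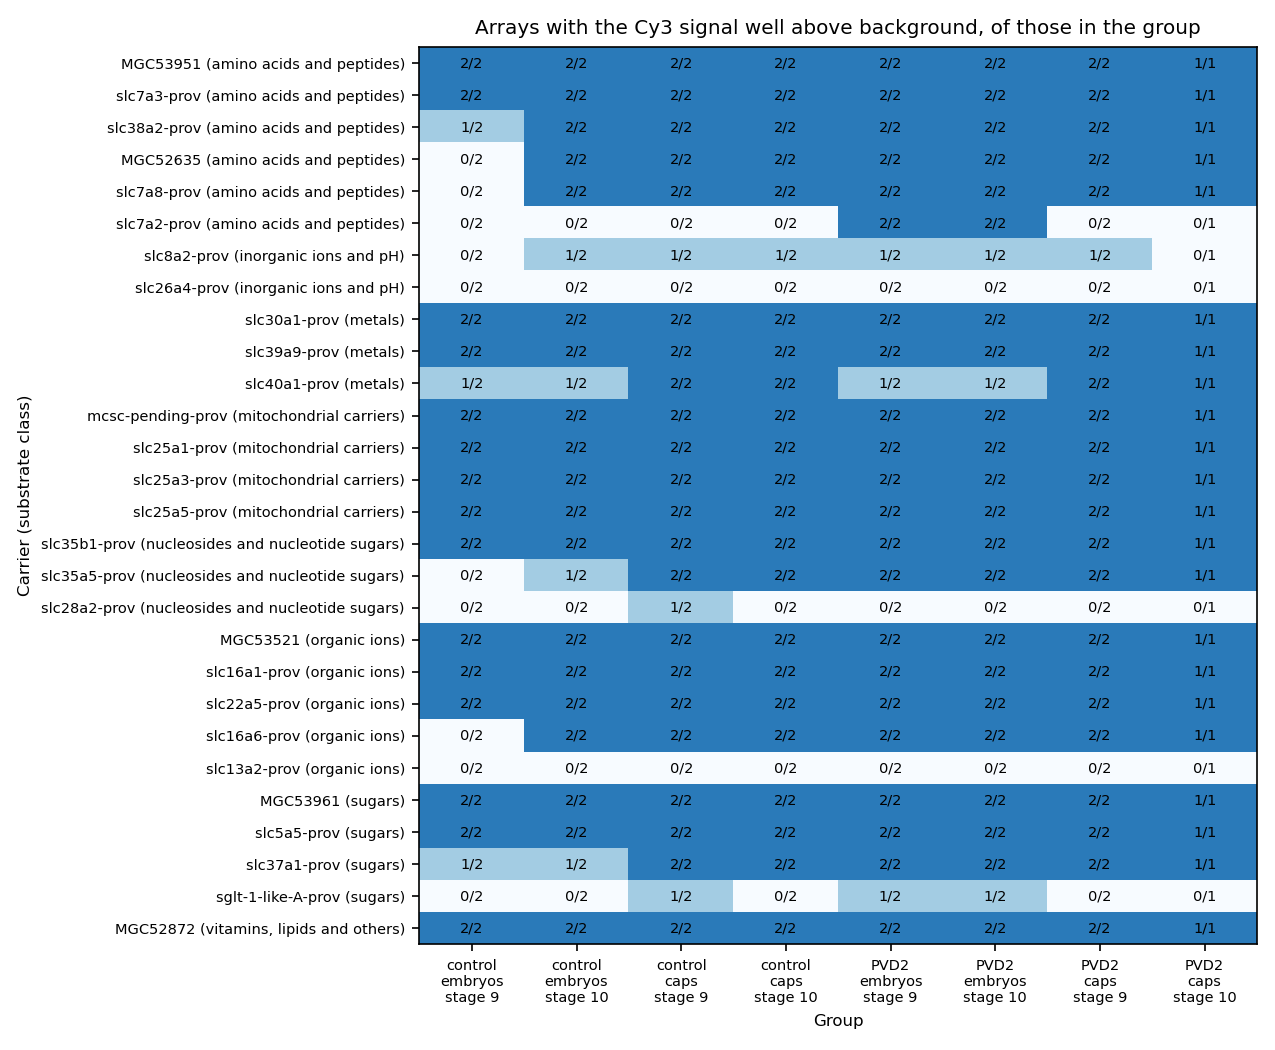
Number of arrays on which each of the 28 carriers (rows, with the substrate class of its family) had a Cy3 signal well above background, in each of the 8 groups (columns), as a count of the arrays in the group. Of the 28 carriers, 15 are filled in every column, and control embryos at stage 9 have the fewest carriers above background on every array (15), with slc7a8 unmeasured on one of these arrays.

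By group, 15 carriers were above background on every array of control embryos at stage 9, 19 on every array of control embryos at stage 10, and 22 in each of the other groups. MGC52635 (similar to slc18a1, a vesicular monoamine transporter) and the monocarboxylate transporter family member slc16a6 were above background on all 13 other arrays but on neither control embryo array of stage 9. Measured on every array, that pattern was met by 2 of 28 carriers (7.14%) and by 1.74% of all probes. The amino acid exchanger subunit slc7a8 was also above background on those 13 arrays, but it was measured on only 1 of the 2 control embryo arrays of stage 9 and was not above background there. Both arrays had the fewest probes above background in general, so the part of array sensitivity in this pattern was not tested. For the 7 carriers not above background on either control embryo array of stage 9 but on at least 1 control caps array, the difference is known only as a bound, which was above 1 for 6 of them and ran from at least 1.05-fold to at least 1.45-fold brighter in caps. These bounds rest on Cy3 alone, which was brighter on caps arrays in general. In the log2 ratio 4 of the 6 were lower in caps, slc16a6 (-0.62), sglt-1-like-A (-0.28), slc28a2 (-0.20) and MGC52635 (-0.10), while slc35a5 (0.26) and slc8a2 (0.25) were higher, and none of these ratios was called (lowest adjusted p = 0.51 in limma), so no direction is drawn for them. Here "at least" compares the Cy3 signal of the brighter group, after normalization of both channels, with the lowest signal that was above background on the dim arrays, or with the probe's own signal where that was higher.

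Between control caps and control embryos, averaged over both stages, slc25a5 and slc25a1 were higher in caps and slc38a2, a sodium-coupled transporter of small neutral amino acids, was lower (above background on 14 of the 15 arrays, the exception being a control embryo array of stage 9). These were 3 of 28 carriers (10.7%) at an adjusted p under 0.05 in limma, against 7.57% of all probes (4.33% higher and 3.24% lower). The median difference of the 28 carriers was -0.04, and that of all probes 0.00. Differences between tissues can come from fewer cells of a type or from less RNA per cell, which cannot be told apart in pooled tissue.

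The ADP/ATP exchanger slc25a5 stood at -3.23 and -2.91 in control embryos of stage 9, at -3.02 and -2.92 in those of stage 10, at -1.88 and -1.85 in control caps of stage 9 and at -1.86 and -1.79 in those of stage 10. Embryo and caps arrays did not overlap, and PVD2 arrays fell into the same bands (-3.31 to -2.56 in embryos, -2.11 to -1.73 in caps). The difference was 1.18 ± 0.12 (SE), 2.26-fold, with adjusted p = 0.0015, but with the Cy3 signal alone it turned to -0.18 (adjusted p = 0.33), and with median centring in place of loess it was 0.69 (adjusted p = 0.77). The probe was among the brightest, with net Cy5 up to 420500. Its net Cy3 was between 8092 and 15710 on embryo arrays and between 30210 and 40360 on caps arrays, on which Cy3 was brighter in general.

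The citrate carrier slc25a1 stood at -3.26 and -2.78 in control embryos of stage 9 and at -3.04 and -2.95 in those of stage 10. In control caps it stood at -1.98 and -1.90 at stage 9 and at -2.07 and -1.99 at stage 10. All control caps arrays were above all control embryo arrays. The difference was 1.03 ± 0.18 (SE), 2.04-fold, with adjusted p = 0.014. It kept its direction with Cy3 alone (0.58, adjusted p = 0.0018), and was 0.88 (adjusted p = 0.65) with median centring. Without replicate 2 of control caps at stage 9 or at stage 10 the adjusted p was 0.051 and 0.057.

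The neutral amino acid transporter slc38a2 stood at -0.66 and -0.69 in control embryos of stage 9 and at 1.39 and 1.28 in those of stage 10. In control caps it stood at -0.75 and -2.09 at stage 9 and at -0.42 and -1.41 at stage 10. At stage 10 the tissues were far apart, while at stage 9 replicate 1 of the caps lay close to the embryos. The averaged difference was -1.50 ± 0.33 (SE), 2.82-fold lower in caps, with adjusted p = 0.029. At stage 10 alone it was -2.25 (adjusted p = 0.046), where slc38a2 and slc25a5 were called beside 2.59% of all probes, and at stage 9 alone slc25a5 was the one carrier called, beside 0.941%. With median centring slc38a2 was the one carrier called between tissues, beside 154 of 21458 probes. The direction of slc38a2 held in all 14 alternative settings, between -2.25 and -1.12. Its call was the least steady of the 3, since the adjusted p was 0.062 with the slide as a random block (which called 2 carriers beside 3.7% of all probes) and lay above 0.05 when any of the control embryo arrays, replicate 2 of control caps at either stage or either PVD2 caps array of stage 9 was left out, with a highest value of 0.1.

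The common reference is the same RNA on every array, so its Cy5 signal alone should not follow the samples. Quantile normalized and tested in the same way, Cy5 differed between caps and embryo arrays for 12154 of 21458 probes (56.6%), and for 23 of 28 carriers. For slc25a5 the Cy5 difference was -0.74 and for slc25a1 it was -0.57, both opposite to the difference in the ratio. For slc38a2 it was 0.00, and Cy3 alone gave -1.12 (adjusted p = 0.0020). The part of the array differences in the higher ratios of slc25a5 and slc25a1 was not tested further.

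**Figure D2:**
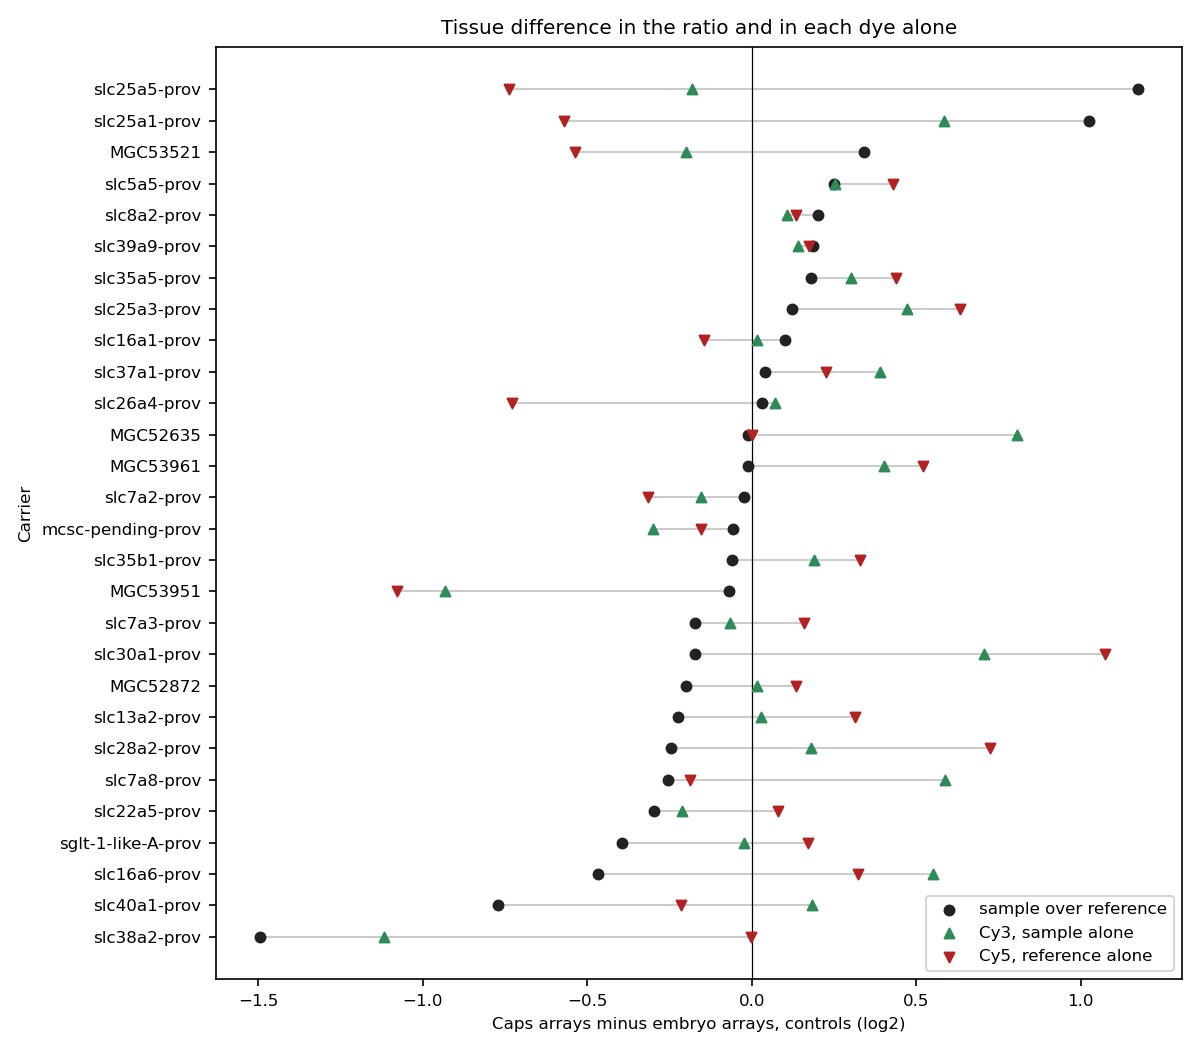
Difference between control caps and control embryo arrays on a log2 scale (horizontal axis) for each of the 28 carriers (rows), in the ratio of sample over reference, in Cy3 alone and in the Cy5 reference alone. In slc25a5 the ratio (1.18) and Cy3 alone (-0.18) lie on opposite sides of 0, and in slc38a2 ratio and Cy3 both lie below 0 with the reference at 0.

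The other carriers were not called between tissues in the model of group means. Of the 6 carriers of amino acids and amines, slc38a2 alone passed the test. MGC52635 was at -0.01, higher in caps in 2 of 4 control pairs, and with Cy3 alone it (0.81) and slc7a8 (0.59) were higher in caps, opposite to their ratios. MGC53951, similar to the exchanger heavy subunit slc3a2, differed by -0.07 ± 0.07 (SE), and slc7a8, a light subunit that pairs with it, by -0.26 ± 0.71, so that a difference of over 2-fold in either direction lies within its interval. The phosphate carrier slc25a3 differed by 0.12 ± 0.13 and the lactate transporter slc16a1 by 0.10 ± 0.29. The zinc exporter slc30a1 gave -0.17 ± 0.13 and the zinc importer family member slc39a9 gave 0.19 ± 0.08 (adjusted p = 0.22). MGC53521, similar to the sulfate transporter slc13a1, was at 0.34 ± 0.13 (adjusted p = 0.17). It passed when the replicate number was a block (adjusted p = 0.040, beside 12.6% of all probes). The Feature Extraction log ratio and an additive model of tissue, stage and morpholino also called it, beside 5208 of 21458 and 5731 of 21490 probes. Its direction turned with Cy3 alone (-0.20).

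From stage 9 to stage 10 in controls, the cationic amino acid transporter slc7a3 and slc38a2 had the largest increases among the carriers, 1.49 and 1.26 on the log2 scale. Neither passed in the model of group means (adjusted p = 0.062 and 0.11), where 0 of 28 carriers were called against 2.56% of all probes (0.783% higher and 1.78% lower), and 5 carriers (17.9%) had an unadjusted p under 0.05 in limma, as had 10.2% of all probes. Since the arrays of both stages shared a slide within each replicate, the same contrast was fitted with the slide as a fixed block. It then called 4 of 28 carriers (14.3%) against 5.86% of all probes: slc7a3, slc38a2 and slc22a5 rose and mcsc-pending fell. With the slide as a random block slc7a3 and slc38a2 were called, beside 1068 of 21458 probes. A block for the replicate number called slc7a3, slc38a2 and mcsc-pending, against 4.88% of all probes.

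The level of slc7a3, which imports arginine, lysine and ornithine, went from -0.90 to 0.80 in control embryos of replicate 1 and from -0.51 to 1.17 in replicate 2. In control caps it went from -1.12 to 0.36 and from -0.23 to 0.86. Every stage 10 array of controls lay above every stage 9 array. The change was 1.49 ± 0.13 (SE with the slide as a block), 2.80-fold, with adjusted p = 0.0016, and it was higher at stage 10 in 7 of 7 pairs of arrays, PVD2 pairs included, as were 4 of 28 carriers and 6.66% of all probes. With the slide as a block the change was called in control embryos (1.69, adjusted p = 0.0066), in control caps (1.28, adjusted p = 0.023) and in PVD2 embryos (1.64, adjusted p = 0.011), and it was not called in PVD2 caps (adjusted p = 0.11), which had 1 array at stage 10. In the same order these 4 contrasts called 2.85%, 1.8%, 2% and 0.149% of all probes. Cy5 of this probe alone differed by 0.04 between stages and Cy3 alone by 1.55 (adjusted p = 0.032).

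With the slide as a block, the increase of slc38a2 was called in embryos and not in caps, and the difference between the tissues did not pass its test. In control embryos the increase was 2.01 ± 0.31 (SE with the slide as a block), 4.03-fold, with adjusted p = 0.022, and the PVD2 embryos rose by 2.29 in replicate 1 and by 1.17 in replicate 2. In control caps the pairs rose by 0.33 and 0.68, and their stage 10 levels of -0.42 and -1.41 stayed below both control embryo levels. The pair of PVD2 caps rose by 1.02. The stage 9 signal of slc38a2 was low, with net Cy3 of 50.2 and 13.6 in control embryos (1 of 2 arrays above background) and 62.0 and 36.9 in control caps. At stage 10 it was 346 and 264 in control embryos and 179 and 88.9 in control caps. The size of these increases is therefore limited by the signal over background at stage 9. The difference of the change between control caps and control embryos, -1.51 ± 0.44 (SE), did not pass (adjusted p = 0.96, unadjusted p = 0.011), and over all probes that contrast called 0.00932%. Averaged over the tissues the change was 1.26 ± 0.22 with adjusted p = 0.019, and the level rose in 7 of 7 pairs. Without replicate 1 of control caps at stage 9 the averaged change was 1.59 and passed without a block too (adjusted p = 0.040).

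**Figure D3:**
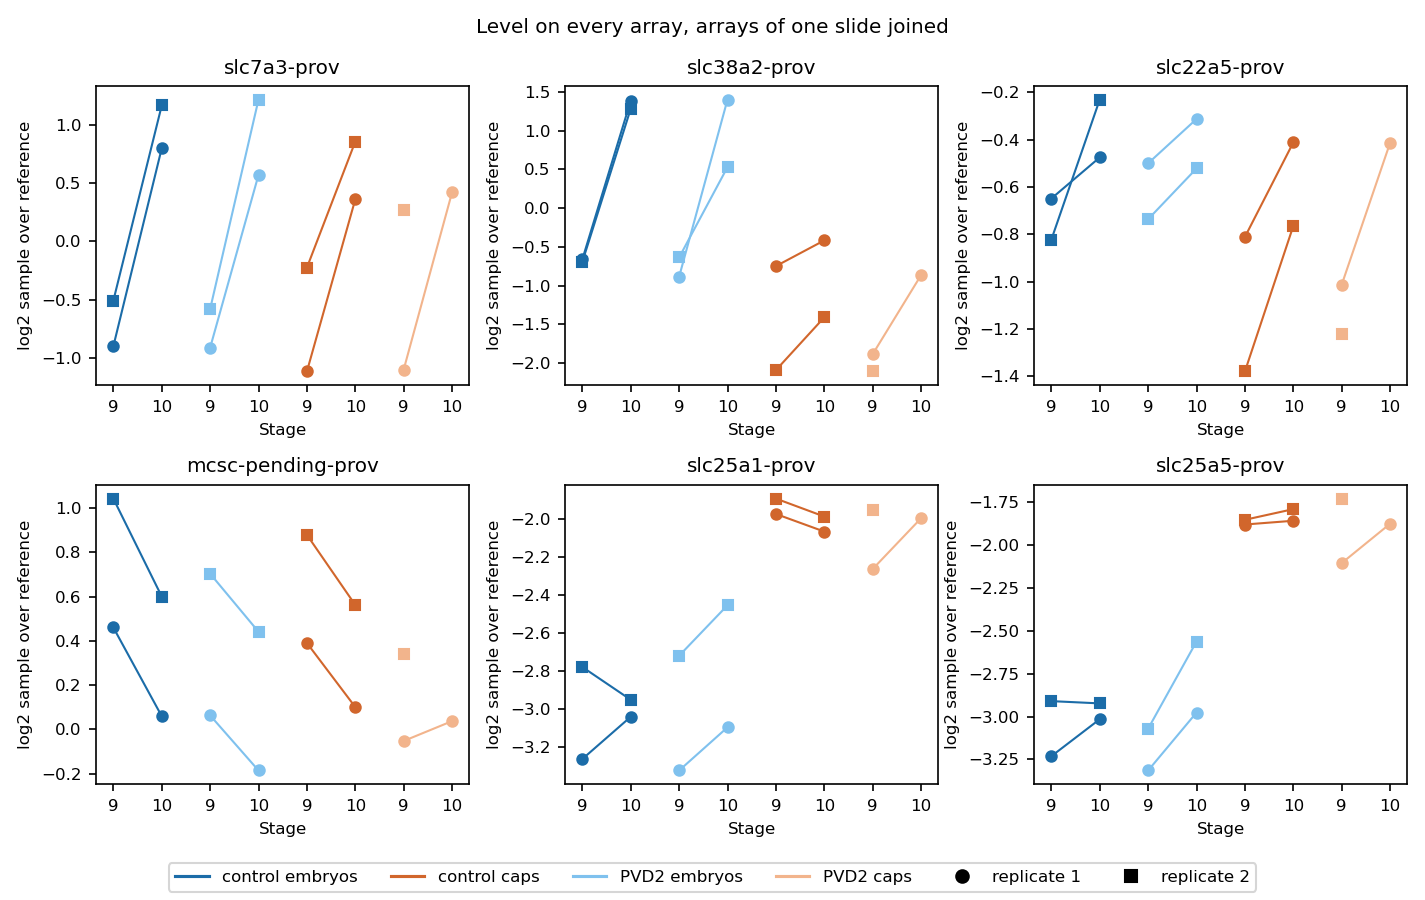
Level of 6 carriers on each of the 15 arrays as log2 of sample over reference (vertical axis) at stages 9 and 10 (horizontal axis). Lines join the stage 9 and stage 10 arrays of one morpholino on a slide, with colours for tissue and morpholino and symbols for the replicate. The lines of slc7a3 rise in every pair, those of slc38a2 rise furthest in embryos, and slc25a1 and slc25a5 separate the tissues.

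The carnitine transporter slc22a5 stood between -0.82 and -0.65 in control embryos of stage 9 and between -0.48 and -0.23 in those of stage 10. In control caps it went from -0.81 to -0.41 and from -1.38 to -0.77. Its change of 0.45 ± 0.10 (SE) passed with the slide as a fixed block (adjusted p = 0.042). It did not pass in the model of group means (adjusted p = 0.24) or with the slide as a random block (0.058). An additive model of tissue, stage and morpholino called it too, beside 1511 of 21495 probes. The calcium-dependent mitochondrial carrier mcsc-pending moved the other way, from 0.46 to 0.06 and from 1.04 to 0.60 in control embryos and from 0.39 to 0.10 and from 0.88 to 0.56 in control caps. Its change was -0.36 ± 0.04 with the slide as a block, with adjusted p = 0.0043, lower in 4 of 4 control pairs, as were 6 of 28 carriers and 15.9% of all probes. Replicate 2 lay above replicate 1 at both stages, and stages of different replicates overlapped.

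The remaining carriers were not called between the stages in the model of group means or with a block. Over all members of a class, called ones included, the medians were -0.08 for amino acids and amines, 0.02 for mitochondrial carriers, 0.01 for metals, 0.10 for organic ions, -0.19 for nucleosides and nucleotide sugars and -0.33 for the 4 carriers of the sugar families. The pair of ion carriers had a median of -0.31 and the thiamine transporter-like MGC52872 stood at -0.38, beside -0.01 for all probes. These medians include carriers seldom above background: slc13a2 and slc26a4 (no array), slc28a2 (1), sglt-1-like-A (3), slc7a2 (4) and slc8a2 (6 of 15). The ion pair is slc26a4 and slc8a2. In slc26a4 the ratio gave -0.49 and Cy3 alone -0.0009, so no direction is drawn for this pair. Classes go by family number, so the sugar families include the iodide transporter slc5a5. The endoplasmic reticulum carrier slc35b1 rose by 0.25 ± 0.09 (SE) in the estimate (adjusted p = 0.26), slc25a3 gave 0.15 ± 0.13, slc16a1 0.17 ± 0.29, slc25a5 0.07 ± 0.12 and slc30a1 0.01 ± 0.13. For 19 of 28 carriers the 95% interval excluded a change of over 2-fold in either direction, and for the other 9 it did not.

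**Figure D4:**
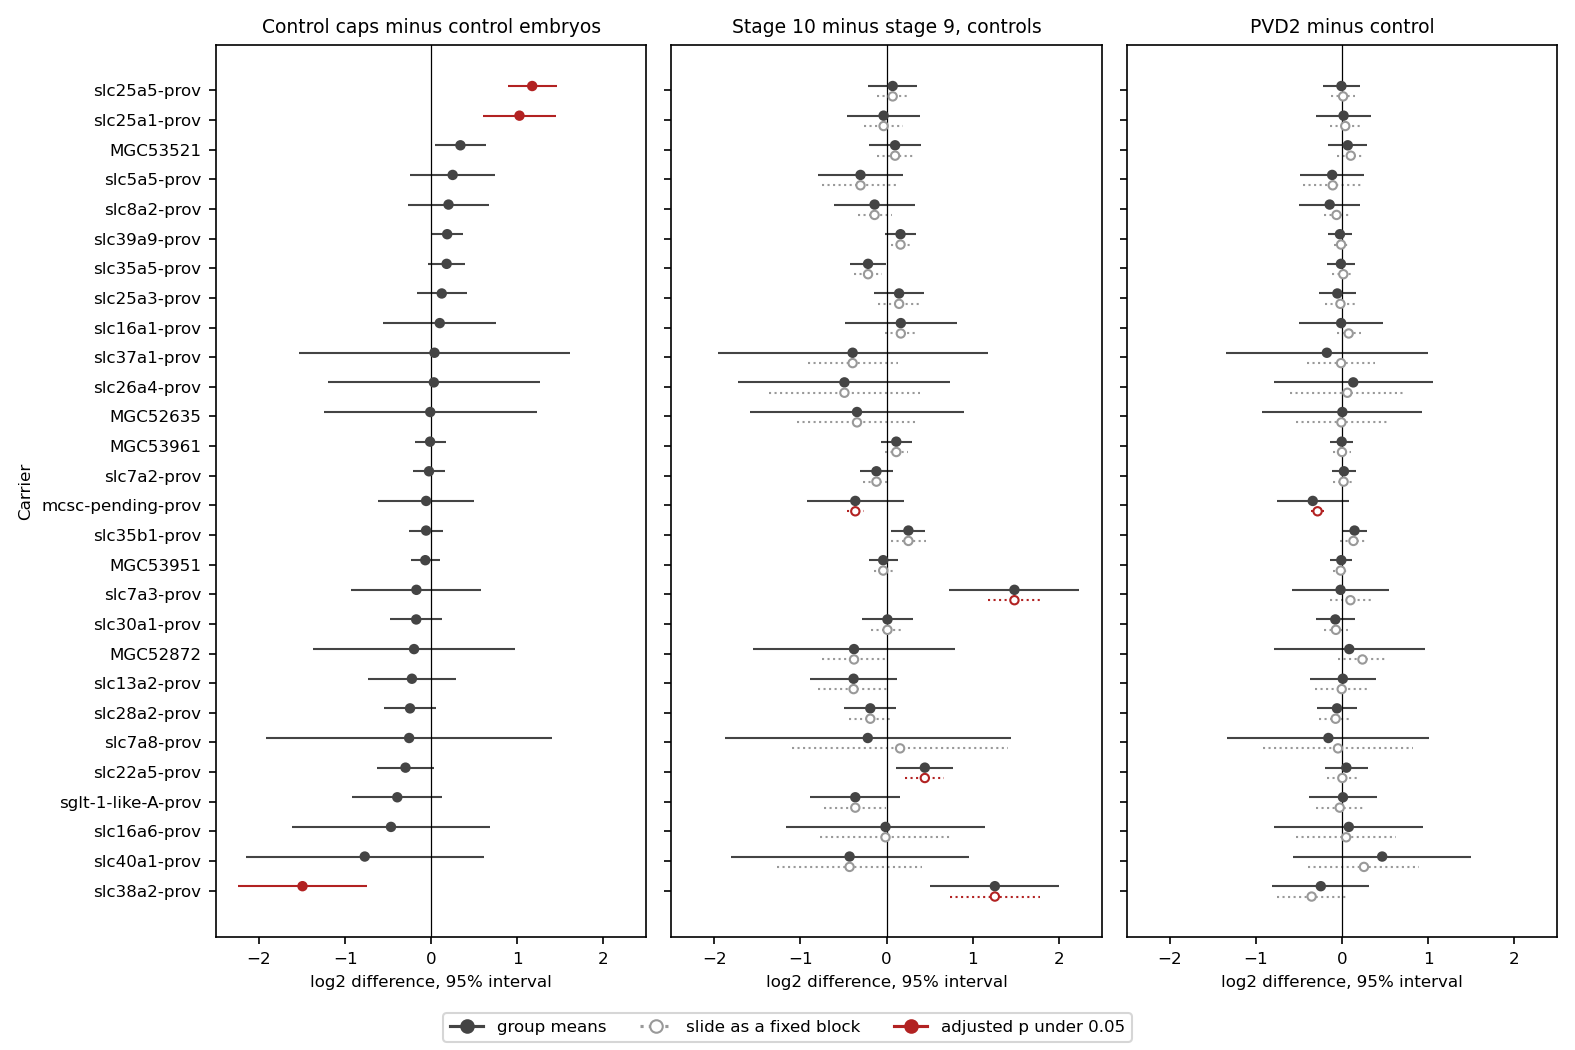
Log2 difference with its 95% interval for each of the 28 carriers (rows) between tissues in controls, between stages in controls and between PVD2 and control, from the model of group means (filled) and with the slide as a fixed block (open). Red marks an adjusted p under 0.05, reached by slc25a5, slc25a1 and slc38a2 between tissues, by slc7a3, slc38a2, slc22a5 and mcsc-pending between stages with the block and by mcsc-pending for PVD2 with the block.

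In the averaged contrast, most carriers lay close to their control level with PVD2. Averaged over both tissues and stages, 0 of 28 carriers were called in limma, against 0.387% of all probes (0.0513% higher and 0.336% lower), and 0 had an unadjusted p under 0.05, which 4.22% of all probes had. The median size of the difference was 0.06, beside 0.05 over all probes, and for 24 of 28 carriers the 95% interval excluded a change of over 2-fold. Within single tissues and stages the median sizes were 0.08 and 0.20 (embryos of stages 9 and 10) and 0.16 and 0.12 (caps). Over all probes they were 0.07, 0.10, 0.09 and 0.09 in the same order. There the interval excluded over 2-fold for 17 carriers in embryos of stage 9, and for 16 each in embryos of stage 10 and caps of stage 9. No such count is given for caps of stage 10, where PVD2 had 1 array. Opposite differences partly cancelled, as in slc16a6 (0.88 in embryos of stage 10, -0.69 in caps of stage 9, 0.08 averaged). Each of these opposite values rested mainly on 1 pair of arrays. In replicates 1 and 2 the pairs were 0.04 and 1.73 in the embryos and -1.33 and -0.05 in the caps. The 1.73 came from the PVD2 embryo array with the narrowest spread of log2 ratios (SD 0.511), whose part in it was not tested. No carrier was called in a single tissue and stage, nor was any difference of the PVD2 effect between tissues or between stages, in contrasts that called at most 0.0279% of all probes.

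The single exception came with a block. The calcium-dependent mitochondrial carrier mcsc-pending was lower in PVD2 than in the control on the same slide in 7 of 7 pairs, by between 0.06 and 0.54, and it was the only one of 28 carriers lower in every pair (3.57%, against 2.18% of all probes). In embryos of stage 9 the level was 0.06 and 0.70 in PVD2 against 0.46 and 1.04 in controls, and in caps of stage 9 it was -0.05 and 0.34 against 0.39 and 0.88. With the slide as a fixed block the averaged effect was -0.28 ± 0.03 (SE), 1.22-fold lower, with adjusted p = 0.014, where 0.975% of all probes were called. A block for the replicate number gave -0.27 (adjusted p = 0.032), beside 0.704% of all probes. Without a block it was -0.34 ± 0.18 (adjusted p = 1.00). PVD2 caps of stage 10 entered with an array of replicate 1 only, and replicate 1 was the lower one for this probe. With the slide as a random block the adjusted p was 0.54, and with median centring without a block the value was -0.03.

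Among the carriers above background on all arrays, the next lowest with PVD2 were slc5a5 (-0.11 ± 0.16 SE), slc30a1 (-0.08 ± 0.10), slc25a3 (-0.05 ± 0.10) and slc39a9 (-0.02 ± 0.06). The highest were slc35b1 (0.15 ± 0.06, unadjusted p = 0.051, higher in 6 of 7 pairs), MGC52872 (0.09 ± 0.39), MGC53521 (0.07 ± 0.10), slc22a5 (0.05 ± 0.11) and slc25a1 (0.02 ± 0.14). None of these differences was called. Of the other carriers with a tissue or stage difference, slc25a5 gave -0.01 ± 0.09 and slc7a3 gave -0.02 ± 0.25, neither of them called. For slc38a2 the value was -0.25 ± 0.25, lower in 5 of 7 pairs, and with the slide as a block it was -0.35 (unadjusted p = 0.074, adjusted p = 0.75 in limma). The pairs of slc38a2 ran from -1.14 to 0.06. With Cy3 alone the value was 0.02 (adjusted p = 0.98 in limma), so no decrease is drawn from it.

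In slc37a1, MGC52872, slc16a1 and mcsc-pending the difference between replicate numbers was larger than each of the averaged tissue, stage and PVD2 differences. In slc7a3, slc25a1 and slc25a5 it was smaller than the largest of these. Tested in the model with the replicate number as a block, a comparison added after the values were seen, 7 of 28 carriers (25%) were higher in replicate 2, against 12.9% of all probes called (7.71% higher and 5.15% lower), and no carrier was lower. They were slc37a1 (1.46 ± 0.16 SE, adjusted p = 0.0010), MGC52872 (1.09 ± 0.12, adjusted p = 0.00098), slc7a3 (0.64), slc16a1 (0.61), mcsc-pending (0.53), slc25a1 (0.33) and slc25a5 (0.22). Replicate number was tied to the slide, and whether it also marks a clutch of embryos is not stated in the labels, so these cannot be told apart.

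The sugar phosphate transporter slc37a1 stood between -2.63 and -1.36 on the replicate 1 arrays and between -0.84 and -0.07 on those of replicate 2, with no overlap. A second probe described as similar to the same gene, MGC53961, stood between 0.19 and 0.68 on all arrays and differed by 0.11 ± 0.05 (adjusted p = 0.22) between replicate numbers, so the 2 probes disagreed. The thiamine transporter-like MGC52872 lay between -1.57 and -0.34 in replicate 1 and between -0.41 and 0.25 in replicate 2. The lactate transporter slc16a1 lay between -0.84 and -0.59 in replicate 1 and between -0.54 and 0.18 in replicate 2.

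The iron exporter slc40a1 had the opposite pattern in Cy3. Its net Cy3 was 94.99 on control embryos of stage 9 in replicate 1 and 6.61 in replicate 2, and 72.4 and 11.3 at stage 10. On control caps it was 225 and 57.4 at stage 9 and 194 and 70.0 at stage 10. It was above background on every caps array and on every replicate 1 embryo array but on none of the 4 replicate 2 embryo arrays. In the log2 ratio the caps fell from -3.37 to -5.94 and from -4.29 to -5.60 between replicates, whereas the embryo arrays of replicate 2, where the probe was not above background, gave -4.60 to -2.19, and the difference over all groups was -0.54 ± 0.44 (adjusted p = 0.54). Its tissue difference (-0.77 ± 0.61) and PVD2 effect (0.47 ± 0.46) were not called.

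**Figure D5:**
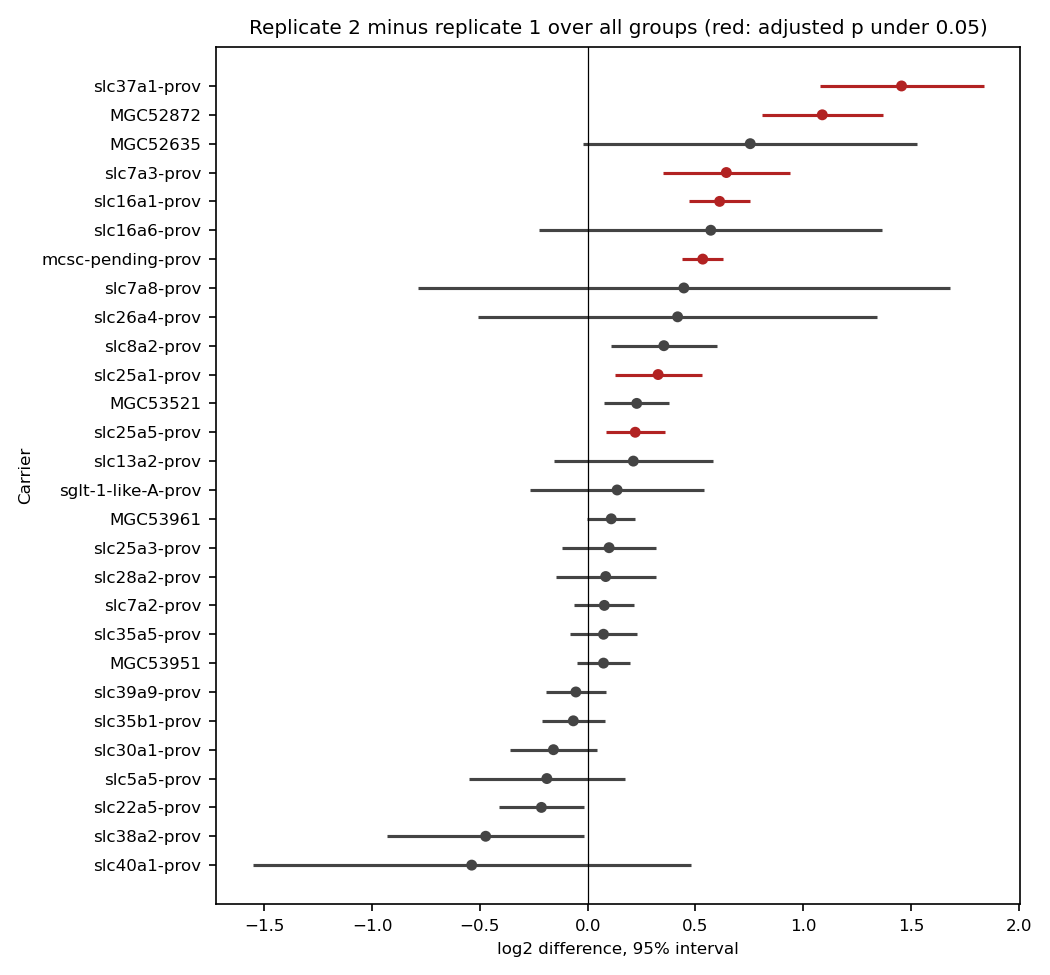
Log2 difference between replicate 2 and replicate 1 over all groups with its 95% interval for each of the 28 carriers (rows), from the model with the replicate number as a block, with an adjusted p under 0.05 in red. The 7 red carriers all lie above 0, from 0.22 in slc25a5 to 1.46 in slc37a1.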

How the data were processed

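Total RNA was hybridised to 2-colour Agilent Xenopus arrays, which the authors scanned and extracted with the software Feature Extraction, version 9.5.1.1. The intensity values (mean signal and median local background per spot) were used as deposited, without normalization, and so were the flags for signal well above background. The authors also deposited a log10 ratio per spot, dye normalized by Feature Extraction, and a table of processed values on a log10 scale whose computation is not given in the sources used here. Both served as alternatives only.

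Background was corrected by normexp (offset 50) and ratios were normalized by loess within arrays. The 1417 control spots and any spot flagged as an outlier did not enter, saturation removed no spot, and the 2 spots of a probe were averaged. Each array lacked some probes: 189 had no value on at least 1 array, slc7a8 among them (control embryos at stage 9, replicate 1, which its fits leave out). A probe counted as above background on an array where at least 1 kept spot was flagged so. The number of arrays limits the precision.

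With limma 3.58.1 (R 4.3.3), 8 group means were fitted to every probe (7 residual degrees of freedom), moderated by eBayes, with Benjamini-Hochberg adjustment at 0.05. The methods' ANOVA was not repeated. The fits were tested on simulated data with independent noise on each array. Such data lack the correlation within slides given below, so they do not show how many false calls a fit without a block makes here. Labels do not say whether replicates were separate clutches, so p-values measure the spread between these samples. Replicate numbers shared slides: deviations from group means correlated between groups of one tissue (r from 0.472 to 0.879, 9 of 9 pairs), so values with a block are printed where they change a call. Between tissues r ran from -0.37 to 0.664.

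The genes described with values were the carriers past the threshold in a comparison, for PVD2 the 5 largest differences in each direction among carriers above background on all arrays, and a list of well-known carriers. The carriers and lists were chosen with earlier results of these data known. No sequence is shown, as none was in the files used here. RefSeq symbols served for names only.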

Additional observations from a re-analysis of the deposited data

How the results depend on the processing

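The number of carriers called between tissues (3 of 28) became 8 without background correction, 1 with median centring, 12 with Cy3 alone, 8 with the Feature Extraction log ratio, 8 with the authors' values of 16 arrays, 9 in the additive model, 1 without both control embryo arrays of stage 9 and between 1 and 4 when single arrays were left out. The count over all probes moved with it, from 1624 to 4869, 154, 6268, 5208, 5283, 5731 and 386 in the same order of settings. Carriers called there but not in the model of group means included slc39a9, MGC52635 and slc7a8. For slc39a9 the settings were no background correction, the Feature Extraction log ratio, the authors' values and the additive model. For MGC52635 and slc7a8 they were Cy3 alone, the Feature Extraction log ratio and the authors' values. Between stages (0 of 28) the count became 3 without background correction, 5 with Cy3 alone, 5 with the Feature Extraction log ratio, 4 with the authors' values, 1 with the filter on dim probes, 3 with the replicate block, 4 with the slide as a fixed block, 2 with the slide as a random block and 4 in the additive model. Over all probes the stage count moved from 549 to 1153, 1213, 1389, 1314, 580, 1048, 1257, 1068 and 1511 in the same order of settings. Of the carriers that no block called, slc16a6 and slc7a8 were called with Cy3 alone, the Feature Extraction log ratio and the authors' values. The others were slc35b1 (no background correction and additive model), MGC53961 (Cy3 alone) and slc13a2 (Feature Extraction log ratio). The last was above background on no array. For PVD2 (0 of 28) the carrier count became 1 with the authors' values (slc26a4, not above background on any array), 1 with the replicate block and 1 with the slide as a fixed block. Over all probes the PVD2 count moved from 83 to 392, 151 and 209 in the same order. Over all probes, tissue calls numbered 795 with the slide as a random block and 1077 without moderation, and 710 to 1896 when single arrays were left out. Stage calls ran from 17 (median centring) to 1511 (additive model) and PVD2 calls from 1 (median centring) to 392 (authors' values), with 259 to 658 and 33 to 73 when single arrays were left out. The replicate block moved the counts from 1624 to 2701 (tissue), from 549 to 1048 (stage) and from 83 to 151 (PVD2).

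The direction of slc25a5 between tissues reversed with Cy3 alone (-0.18), and the cause was not tested. It was called in 12 of 14 other settings and in 15 of 15 fits without 1 array, slc25a1 in 12 and 13, and slc38a2 in 11 and 7. The direction of slc7a3 and slc38a2 between stages held in all 15 alternatives, 9 and 8 of which called them. Counting a carrier as above background in a group from 1 array in place of every array raised the number above background in all groups from 15 to 18. The comparison between replicate numbers and the fits without both control embryo arrays of stage 9 were chosen after seeing the data. Dim probes such as slc40a1 are limited by their signal over background.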

Other observations

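Other transport genes were described from a list of 22 probes for ion pumps, channels, ABC proteins and carriers of other families. Between tissues 3 of them were called, all higher in caps: ca-p60a, a calcium pump matched to atp2a1.S (2.63 ± 0.21 SE, adjusted p = 0.00032), atp1b2, a beta subunit of the sodium-potassium pump (1.60 ± 0.21, adjusted p = 0.0041), and atp6d, a subunit of the vacuolar proton pump (0.63 ± 0.12, adjusted p = 0.019). Over all probes 7.57% were called (4.33% higher). The Cy5 reference alone also differed between caps and embryo arrays for 56.6% of all probes, and its part in these 3 ratios was not tested. The median of the list was 0.07. Between stages atp1b2 alone was called (1.15 ± 0.21, adjusted p = 0.026), beside 2.56% of all probes, and PVD2 called none of the 22, beside 0.387%.

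Carriers that the array names without a solute carrier symbol fell outside the rule. MGC68975, described as the large neutral amino acid transporter LAT-1, stood at a mean of -2.98 in control embryos of stage 9, -2.71 in those of stage 10, -2.77 in control caps of stage 9 and -1.89 in those of stage 10, and its stage change of 0.58 ± 0.35 (SE) was not called (adjusted p = 0.74). The monocarboxylate transporter mct3, matched to slc16a3, differed between tissues by 0.12 ± 0.13 (SE), which was not called. The anion exchangers described as SLC26A1, SLC26A3 and SLC26A6 did not pass in any of the 3 comparisons, with PVD2 effects of 0.03, 0.00 and 0.13.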
